A study of Mus musculus with 12 samples.

Results

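Genes of epithelial identity and of the epithelial-to-mesenchymal transition (EMT) were followed in mouse mammary tumors, 10 genes of the 54532 counted. They were taken by name: the epithelial genes Cdh1, Epcam and Ocln, the mesenchymal genes Cdh2 and Vim, and the transcription factors Snai1, Snai2, Zeb1, Zeb2 and Twist1. RNA sequencing was performed on 12 tumors of MMTV-Neu mice, 4 tumors from each of 3 diets, with 4 mice a group in the study. Control mice received powdered chow mixed with vehicle (ethanol and coconut oil) and no drug. The other mice received this chow with a retinoid X receptor (RXR) agonist dissolved in the vehicle. The agonist was MSU-42011 or the approved RXR agonist bexarotene, each at 100 mg/kg diet. Feeding began when a tumor measured 4 mm across and lasted 10 days. All 3 groups carry the MMTV-Neu transgene, in which a viral promoter active mainly in mammary epithelium drives the Neu (HER2) receptor, so the tumors arise from epithelial cells and each tumor also holds host stroma. Ages were not given in the sources used here.

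In epithelial cells E-cadherin (Cdh1) and occludin (Ocln) hold neighbouring cells together, and EpCAM marks the epithelial surface. During EMT the factors of the Snail, ZEB and Twist families bind E-box sequences and repress Cdh1 and other junction genes, while N-cadherin (Cdh2) and the filament protein vimentin (Vim) are raised. The same factors and vimentin are also made by fibroblasts, endothelial cells and macrophages, so that in RNA from whole tumor pieces their level depends on cell composition as well. In such bulk samples, fewer cells of a type and less RNA per cell cannot be told apart.

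The E-box through which Snail and ZEB factors repress epithelial genes, CAGGTG or CACCTG on the other strand, was searched in RefSeq promoter windows on GRCm38.p6. A window was found for 6 of the 10 genes, Epcam, Ocln, Snai1, Twist1, Vim and Zeb2. The 250 bases before the annotated start of Epcam hold 2 matches, at positions −187 and −19 (first base of the match, counted back from the start). The window of Snai1, whose product is itself an E-box repressor, holds 1 match before the start, at −126. Of all 32851 windows, 17.2% hold at least 1 match before the start and 2.06% hold 2 or more. The stretches are shown because they hold the letters that the repressors measured here are known to bind, with the matches in capitals.
Epcam upstream, chr17:87635729-87635978, plus strand: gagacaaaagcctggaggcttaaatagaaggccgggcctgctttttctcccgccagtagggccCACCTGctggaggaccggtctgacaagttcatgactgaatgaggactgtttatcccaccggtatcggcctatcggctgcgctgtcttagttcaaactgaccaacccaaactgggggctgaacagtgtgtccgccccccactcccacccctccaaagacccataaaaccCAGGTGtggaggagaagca
Snai1 upstream, chr2:167537945-167538194, plus strand: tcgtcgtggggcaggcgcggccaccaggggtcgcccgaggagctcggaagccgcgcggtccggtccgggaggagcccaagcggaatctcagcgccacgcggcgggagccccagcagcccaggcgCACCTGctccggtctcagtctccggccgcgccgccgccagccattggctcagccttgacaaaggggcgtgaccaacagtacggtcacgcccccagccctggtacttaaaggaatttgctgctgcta
Ocln first match, chr13:100552698-100552719, minus strand: cggagtttCAGGTGaatgggtc
Ocln second match, chr13:100552553-100552574, minus strand: gggctcggCAGGTGggtcccag
Ocln has 2 annotated starts, and both of its matches precede the inner start, at −213 and −68. They lie after the outer start, before which no match was found. No match was found before the start in the windows of Vim, Twist1 and Zeb2. A match is a description of the letters and no evidence of binding in these tumors.

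Each library held 16583413 to 25925027 counted reads (median 19342536). The luminal keratins Krt8 and Krt18 were abundant, with mean levels above those of 99.3% and 99.4% of the genes tested. Erbb2 ranged from 93.8 to 172.9 in CPM (the count scaled by the library total and edgeR's TMM factor) over all tumors. Bexarotene replicate 1 stood apart from the other 11 tumors: its median correlation with the others over genes was 0.915, where each of the rest reached 0.961 or more. On the first principal component it lay at −115, and the others lay between −16.2 and 34.2. Log2 fold changes with bexarotene against control are therefore given with and without this tumor.

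Epcam and Cdh1 were the most abundant of the 10 genes per length, Vim and Ocln followed, and the EMT transcription factors and Cdh2 were low. In the 4 control tumors the FPKM as deposited (fragments scaled by gene length and library total) was 1103 ± 81.5 (SD, n = 4) for Epcam, 109 ± 19.5 for Cdh1, 73.4 ± 38.0 for Vim and 17 ± 2.26 for Ocln. The FPKM was 2.86 ± 1.09 for Zeb2, 2.73 ± 1.11 for Zeb1 and 1.03 ± 0.209 for Snai1. It was 0.307 ± 0.265 for Twist1, 0.229 ± 0.123 for Snai2 and 0.205 ± 0.117 for Cdh2. In this order the ranges of Cdh1 and Vim overlapped, as did those of Zeb2 and Zeb1, of Zeb1 and Snai1, of Twist1 and Snai2, and of Snai2 and Cdh2.

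The length behind these values matters for the order of the factors. The FPKM of Zeb2 implies a length of 2189 bases, whereas the table lists 19942 bases, and for Zeb1 the lengths are 1727 and 10266 bases. For Snai1, Snai2, Twist1 and Epcam both lengths are the same. On the listed lengths Zeb1 came to 0.459 ± 0.187 FPKM and Zeb2 to 0.313 ± 0.119, both below Snai1. Vim then fell to 23.0 ± 11.9, below the range of Cdh1 at 66.9 ± 11.9. The order Epcam, Cdh1, Vim, Ocln at the top and Cdh2 at the bottom was the same on either length.

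**Figure D1:**
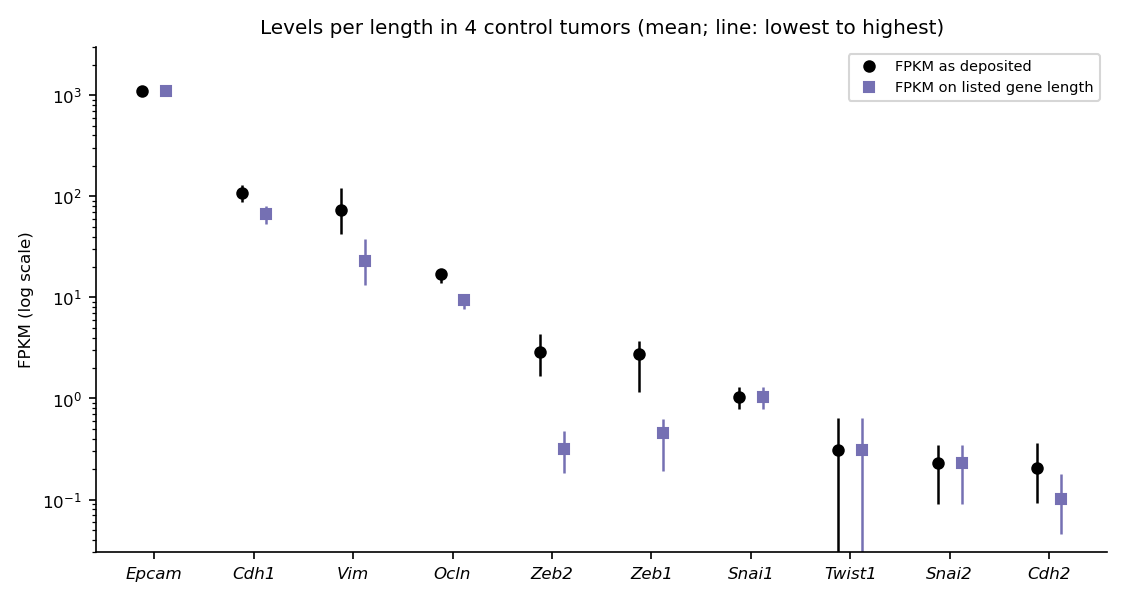
FPKM on a log axis for the 10 genes in the 4 control tumors, as deposited (circles) and on the listed gene length (squares), with points at the mean and lines from the lowest to the highest tumor. Epcam lies highest at 1103, Zeb1 and Zeb2 drop below Snai1 on the listed length, and the Twist1 line runs off the axis because 1 control tumor had a count of 0.

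Cdh1 (chr8:106603351-106670246, GRCm38) encodes E-cadherin, the main adhesion protein of epithelial junctions. Its normalized CPM was 339.9, 384.3, 242.4 and 291 in control replicates 1 to 4. It was 286.2, 225.7, 361.6 and 260.1 with MSU-42011, and 189.1, 195.3, 326.5 and 241.3 with bexarotene. The 3 groups overlapped, with bexarotene replicates 1 and 2 the lowest of the 12 tumors. The log2 fold change was −0.15 (standard error, SE, 0.206, 95% interval −0.598 to 0.299) with MSU-42011 against control. In the bexarotene group it was −0.40 (SE 0.206, interval −0.850 to 0.0475, edgeR and Benjamini-Hochberg adjusted p = 0.810), and −0.31 (SE 0.214) without replicate 1.

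Epcam (chr17:87635979-87651106) encodes a surface adhesion protein used to mark carcinoma cells. Its CPM was 2317, 2533, 2003 and 2389 in control tumors, and 2337, 1754, 2184 and 2125 with MSU-42011. With bexarotene it was 1353 in replicate 1, the lowest of all 12 tumors, and 1814, 2295 and 2233 in the other 3. Its log2 fold change was −0.14 (SE 0.180) with MSU-42011 and −0.26 (SE 0.180) with bexarotene. Without bexarotene replicate 1 the latter was −0.13 (SE 0.156).

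Ocln (chr13:100496507-100552718) encodes the tight junction protein occludin. Its CPM ranged from 32.4 to 45.9 in control tumors, from 31.8 to 54.2 with MSU-42011 and from 29.6 to 48.9 with bexarotene, so that all 3 ranges overlapped. On the log2 scale the change was 0.07 (SE 0.196, interval −0.357 to 0.496) with MSU-42011 and −0.16 (SE 0.196, interval −0.588 to 0.266) with bexarotene, and −0.10 (SE 0.211) without bexarotene replicate 1. The intervals of all 3 epithelial genes included 0 with either agonist, and none passed the test.

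Cdh2 (chr18:16588877-16809246) encodes N-cadherin, the cadherin that replaces E-cadherin in the cadherin switch of EMT. It rested on 9 to 112 reads a tumor. Its CPM was 1.48, 0.616, 0.855 and 0.388 in control tumors. With MSU-42011 it was 0.715 and 0.606 in replicates 1 and 2 but 3.36 and 3.19 in replicates 3 and 4, so that the group split into a low and a high pair. In bexarotene tumors it was 4.13 in replicate 1 and 1.05, 1.36 and 0.613 in the others. The log2 fold change was 1.25 (SE 0.719, exact two-sided permutation test, p = 0.286) with MSU-42011 and 1.12 (SE 0.717, exact p = 0.314) with bexarotene. Without bexarotene replicate 1 the latter was 0.29 (SE 0.670). In that tumor, where Cdh1 was lowest and Cdh2 highest, the log2 ratio of Cdh1 to Cdh2 CPM was 5.36, against 6.14 to 8.43 in the other 11 tumors.

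Vim (chr2:13573927-13582826) encodes the intermediate filament of mesenchymal cells. Its CPM was 184, 68.0, 61.9 and 134.7 in control tumors, and 111.4, 67.4, 183 and 133.1 with MSU-42011. Under bexarotene it was 654.1 in replicate 1 and 142.2, 100.6 and 81.6 in the other 3, which lie within the control range. Its log2 fold change with bexarotene was 1.13 (SE 0.624, exact two-sided permutation test, p = 0.457). It was −0.05 (SE 0.396) once replicate 1 was left out. With MSU-42011 it was 0.14 (SE 0.618).

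**Figure D2:**
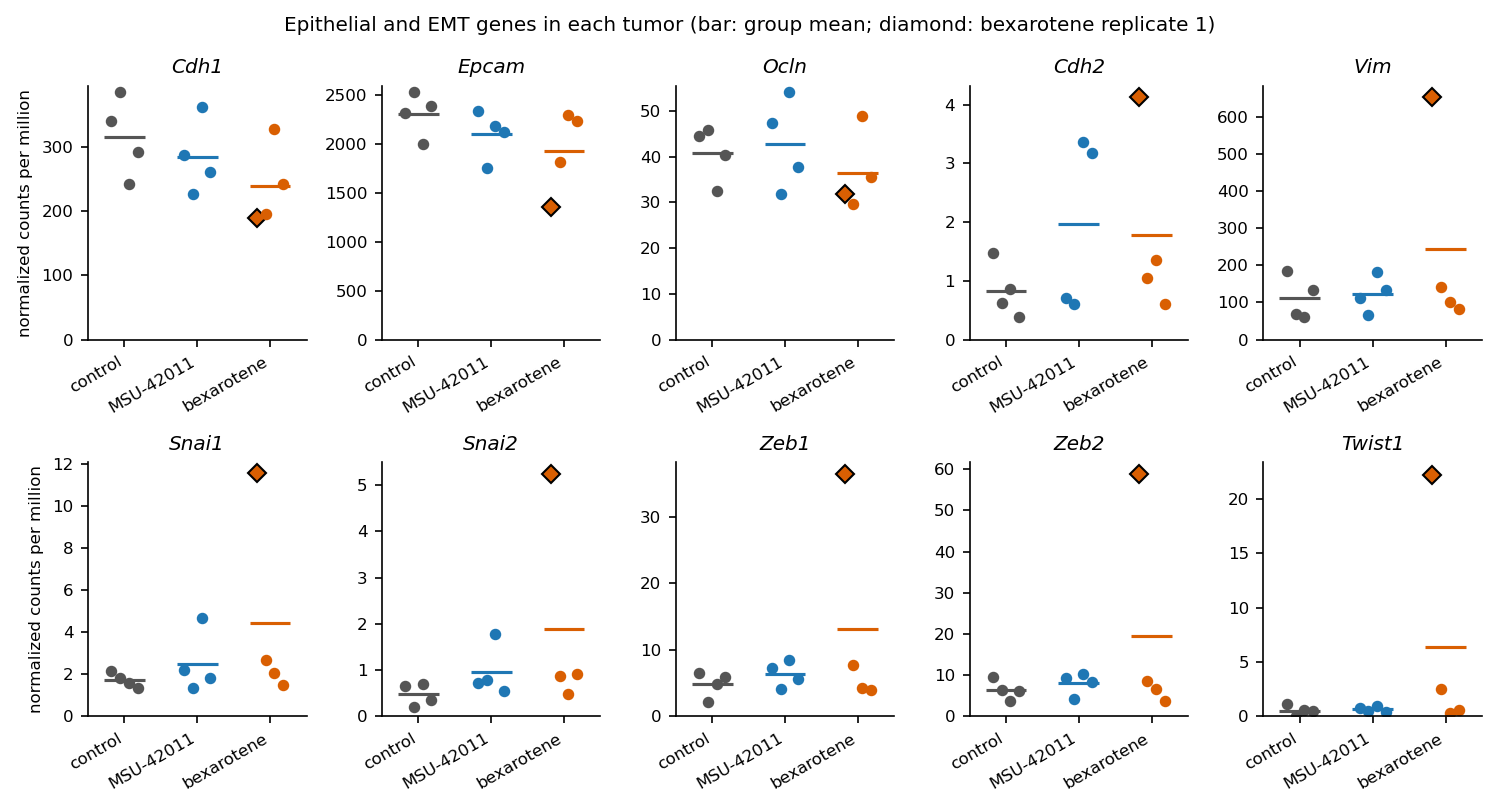
Normalized CPM of each of the 10 genes in each tumor by diet, with the group mean as a bar and bexarotene replicate 1 as a diamond. The diamond is the highest of the 12 tumors for the 7 genes from Cdh2 to Twist1 and the lowest for Cdh1 and Epcam, while the other 11 tumors overlap across the diets.

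The Snail family factors Snai1 and Snai2 bind E-boxes and repress Cdh1. Snai1 (chr2:167538195-167542814) had a CPM of 2.14, 1.80, 1.55 and 1.34 in control tumors, and of 2.20, 1.33, 4.66 and 1.80 with MSU-42011. In the bexarotene group it was 11.6 in replicate 1 and 2.67, 2.03 and 1.47 in the others. On the log2 scale the change under bexarotene was 1.39 (SE 0.618, edgeR adjusted p = 0.769), and 0.28 (SE 0.425) without replicate 1.

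Snai2 (chr16:14705852-14709385) rested on 4 to 33 reads in all tumors except bexarotene replicate 1, where it had 142. Its CPM was 0.653, 0.189, 0.695 and 0.345 in control tumors, and 0.715, 0.788, 1.79 and 0.545 with MSU-42011. With bexarotene it was 5.24 in replicate 1 and 0.859, 0.484 and 0.920 in the others. The log2 fold change was 2.01 (SE 0.753) with bexarotene and 0.69 (SE 0.561) without replicate 1. With MSU-42011 it was 1.03 (SE 0.759, exact two-sided permutation test, p = 0.143).

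The ZEB factors are zinc finger and homeobox repressors of Cdh1. Zeb1 (chr18:5591860-5775467) had a CPM of 6.53, 2.08, 4.86 and 5.82 in control tumors, and of 7.26, 4.0, 8.50 and 5.62 with MSU-42011. In bexarotene tumors it was 36.4 in replicate 1 and 7.68, 4.26 and 3.92 in the others. Its log2 fold change under bexarotene was 1.44 (SE 0.656), and 0.14 (SE 0.396) without replicate 1. Gm10125, annotated on the other strand, shares 198 exonic bases with Zeb1 and had 97 reads over all tumors against 2169 for Zeb1.

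Zeb2 (chr2:44983632-45117395) had a CPM of 9.61, 6.34, 3.64 and 6.12 in control tumors, and of 9.35, 4.18, 10.1 and 8.38 with MSU-42011. Under bexarotene it was 58.9 in replicate 1 and 8.49, 6.59 and 3.62 in the others. On the log2 scale the change with bexarotene was 1.60 (SE 0.732), and −0.04 (SE 0.387) without replicate 1. Zeb2os, its antisense gene, shares 653 exonic bases with Zeb2 and had 71 reads in all, against 3101. As the strand setting of the counting was not given in the sources used here, reads in such shared bases cannot be assigned to a strand.

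Twist1 (chr12:33957671-33959829), a basic helix-loop-helix factor of mesoderm and mesenchyme, had the largest log2 fold change of the 10 with bexarotene. Its CPM was 1.07, 0, 0.535 and 0.431 in control tumors, where the count of 0 in replicate 2 allows up to 0.136 CPM. With MSU-42011 it was 0.770, 0.424, 0.921 and 0.419, and the reads of these 8 tumors numbered 18 at most. In the bexarotene group it was 22.3 in replicate 1, with 603 reads, 2.53 in replicate 2, and 0.242 and 0.552 in replicates 3 and 4. Bexarotene replicate 1 was thus 41.6 times the median of the other 11 tumors and 8.80 times the next highest tumor. The log2 fold change with bexarotene was 3.67 (SE 1.27, edgeR adjusted p = 0.762, exact two-sided permutation test, p = 0.257). Without replicate 1 it was 1.15 (SE 0.908).

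In bexarotene replicate 1 the 7 genes from Cdh2 to Twist1 were all the highest of the 12 tumors, a rank that 19.1% of all genes tested had. Relative to the median of the other 11 tumors this tumor had 4.83 times the Cdh2, 5.87 times the Vim, 6.41 times the Snai1 and 6.49 times the Zeb1. It had 7.54 times the Snai2 and 8.94 times the Zeb2. Cdh1 stood at 0.661 times, Epcam at 0.606 times and Ocln at 0.792 times that median. Cdh1 and Epcam were the lowest of the 12, as were 11.9% of all genes tested, and Ocln was lower in bexarotene replicate 2. The summed CPM of 14 fibroblast markers was 12700 in the same tumor and at most 1025 in the others, and the part of this in the 7 genes was not tested.

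For MSU-42011 against control, 0 of the 10 genes passed an adjusted p under 0.05 with edgeR, as did 0% of the 15504 genes tested. At an unadjusted p under 0.05 the count was 0 of 10, against 1.99% of all genes, and in 0 of 10 did the 2 groups not overlap, against 1.97%. DESeq2 also called 0 of the 10, and 0.00338% of the genes to which it gave an adjusted p. The largest differences were in Cdh2 (1.25) and Snai2 (1.03), and without MSU-42011 replicate 3 they were 0.87 and 0.54. The difference in Snai1 was 0.55 (SE 0.617), and 0.064 without that tumor. For the other factors it was 0.40 (SE 0.650) in Zeb1, 0.32 (SE 0.722) in Zeb2 and 0.34 (SE 1.25) in Twist1. These SEs come from a spread estimated over all 3 groups, bexarotene replicate 1 included. Without that tumor the log2 fold changes were nearly the same and the SEs were smaller. The SE was then 0.367 in Zeb1, 0.357 in Zeb2, 0.394 in Snai1 and 0.521 in Snai2. In that fit the unadjusted edgeR p was 0.064 for Cdh2 and 0.0712 for Snai2, and 0 of the 10 genes passed the adjusted test.

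For bexarotene against control, edgeR called 0 of the 10 and 0% of all genes. At an unadjusted p under 0.05, Snai1, Snai2, Zeb1, Zeb2 and Twist1 were higher, 5 of the 10 genes, where 4.48% of all genes were higher and 6.44% differed in either direction. None of the 10 had groups that did not overlap, against 2.03% of all genes. DESeq2 called 0 of the 10, and 0.0356% of the genes to which it gave an adjusted p. Without bexarotene replicate 1, 0 of the 10 were past an adjusted p of 0.05 (0% of all genes), and 0 of 10 past an unadjusted p of 0.05, where 3.35% of all genes were past it and 1.6% were past it and higher. The 5 differences at an unadjusted p thus rested on 1 tumor.

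The agonists were given at the same dose and for the same time, so they could be compared directly for each of the 10 genes. EdgeR called 0 of 10 and 0% of all genes between MSU-42011 and bexarotene. DESeq2 called 0 of 10, and 0.153% of the genes to which it gave an adjusted p. Twist1 alone had an unadjusted p under 0.05, against 3.95% of all genes, with a log2 difference of −3.33 (SE 1.24, interval −6.04 to −0.632, edgeR adjusted p = 0.997). The groups overlapped in all 10 genes, and did not in 1.17% of all genes. Without bexarotene replicate 1 the difference in Twist1 was −0.81 (SE 0.897), edgeR called 0 of 10 (0% of all genes), and 0 of 10 had an unadjusted p under 0.05 (3.07% of all genes). In that fit Vim, Snai1, Snai2, Zeb1 and Zeb2 turned from lower to higher with MSU-42011, at 0.19 to 0.36. Epcam went from 0.13 to −0.010, Cdh1 from 0.25 to 0.16, Ocln from 0.23 to 0.17 and Cdh2 from 0.13 to 0.96. The intervals with all 12 tumors ran from −0.197 to 0.700 for Cdh1, from −0.265 to 0.517 for Epcam and from −0.196 to 0.658 for Ocln, and those of Vim (−2.34 to 0.369) and Zeb2 (−2.85 to 0.296) were wide, so that neither likeness nor difference of the agonists was established.

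**Figure D3:**
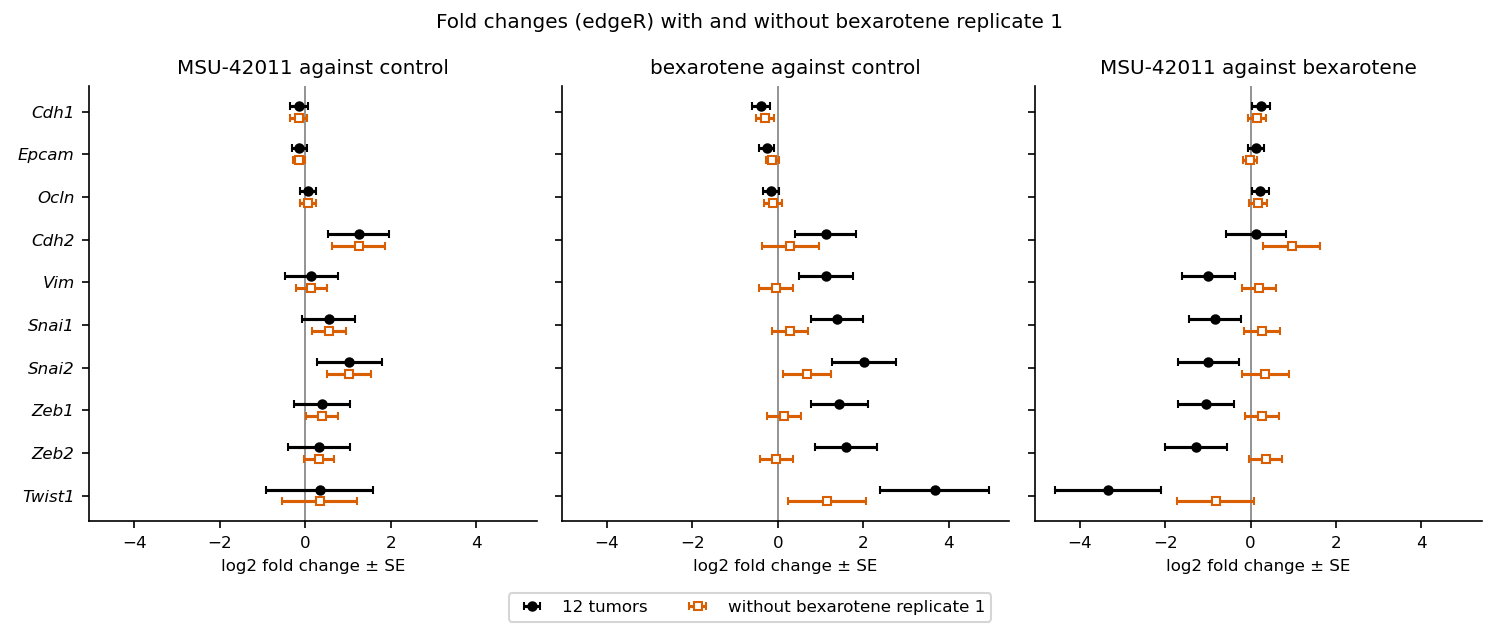
Log2 fold change with its SE (edgeR) for the 10 genes in each of the 3 comparisons, with all 12 tumors (filled circles) and without bexarotene replicate 1 (open squares). With bexarotene, Vim moves from 1.13 to −0.05 and Zeb2 from 1.60 to −0.04, while Cdh1 stays at −0.40 and −0.31.

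Cdh1 is the gene that the EMT factors are known to repress, so its level was set against each of the other 9 genes over the tumors, on log2 of CPM plus 0.5. Of the 9 genes, 3 varied with Cdh1 at an adjusted permutation p under 0.05 with all 12 tumors: Ocln and Epcam in the same direction and Twist1 in the opposite one. For Ocln Pearson's r was 0.911 (permutation p = 7e-05, adjusted over 9 pairs 0.000585) and Spearman's rho 0.874 (permutation p = 0.00037, adjusted 0.00333). It was 0.912 without bexarotene replicate 1, 0.954 with each group centred on its mean and 0.943 without the 2 tumors farthest from the median of Cdh1 (bexarotene replicate 1 and control replicate 2). For Epcam r was 0.822 (permutation p = 0.00013, adjusted 0.000585) and rho 0.797 (permutation p = 0.00296, adjusted 0.0133). The r was 0.806 without bexarotene replicate 1, 0.764 within groups and 0.752 without the 2 farthest tumors. Without bexarotene replicate 1 the rho was 0.736 (permutation p = 0.0128, adjusted 0.0578), which does not pass. Among those 11 tumors the r was 0.64 without the 2 farthest, bexarotene replicate 2 and control replicate 2. In the same tumors Vim, Zeb2, Snai1 and Zeb1 had a higher r with Cdh1 than Epcam had, as given below. Ocln and Epcam thus had a positive r with Cdh1 from tumor to tumor, over all tumors and within the diets. The diet means did not all move together. With MSU-42011 against control the log2 fold change was −0.15 (SE 0.206) for Cdh1 and 0.07 (SE 0.196) for Ocln.

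Twist1 had an r of −0.629 with Cdh1 (permutation p = 0.0121, adjusted 0.0364) and a rho of −0.420 (permutation p = 0.176, adjusted 0.397). Without bexarotene replicate 1 the r was −0.488 (adjusted permutation p = 0.377), and without the 2 farthest tumors −0.294, so the relation rests on those tumors. Among the other regulators, Snai2 had an r of −0.510 (permutation p = 0.0813, adjusted 0.152) and a rho of −0.587 (permutation p = 0.0489, adjusted 0.147), and its r was −0.206 without bexarotene replicate 1. Zeb1 had an r of −0.505 (permutation p = 0.0847, adjusted 0.152), a rho of −0.203 (permutation p = 0.527, adjusted 0.949) and an r of −0.194 without that tumor. Without the 2 farthest tumors the r of both turned positive, at 0.101 for Snai2 and 0.276 for Zeb1.

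For Zeb2, Snai1, Vim and Cdh2 the r with Cdh1 was negative over 12 tumors and positive over 11. It went from −0.256 to 0.411 for Zeb2, from −0.262 to 0.335 for Snai1, from −0.277 to 0.237 for Vim and from −0.0935 to 0.244 for Cdh2. The adjusted permutation p of these 4 was 0.514 to 0.770 over 12 tumors and 0.464 to 0.578 over 11. Their rho over 12 tumors was 0.112 for Zeb2 (permutation p = 0.732), −0.00699 for Snai1 and for Vim (permutation p = 0.991) and 0.00699 for Cdh2 (permutation p = 0.991). Without the 2 tumors farthest from the median of Cdh1 all 4 were positive, at 0.487 for Zeb2, 0.430 for Snai1, 0.527 for Vim and 0.427 for Cdh2. A negative r of these 4 genes with Cdh1 was therefore not seen without bexarotene replicate 1. Of the 11 tumors without it, the 2 farthest were bexarotene replicate 2 and control replicate 2. With these also left out the r was 0.834 for Vim, 0.793 for Zeb2, 0.765 for Snai1 and 0.687 for Zeb1. It was 0.5 for Cdh2, 0.438 for Twist1 and 0.221 for Snai2, against 0.929 for Ocln and 0.64 for Epcam. A positive r with Cdh1 was thus not particular to the epithelial genes in those tumors.

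**Figure D4:**
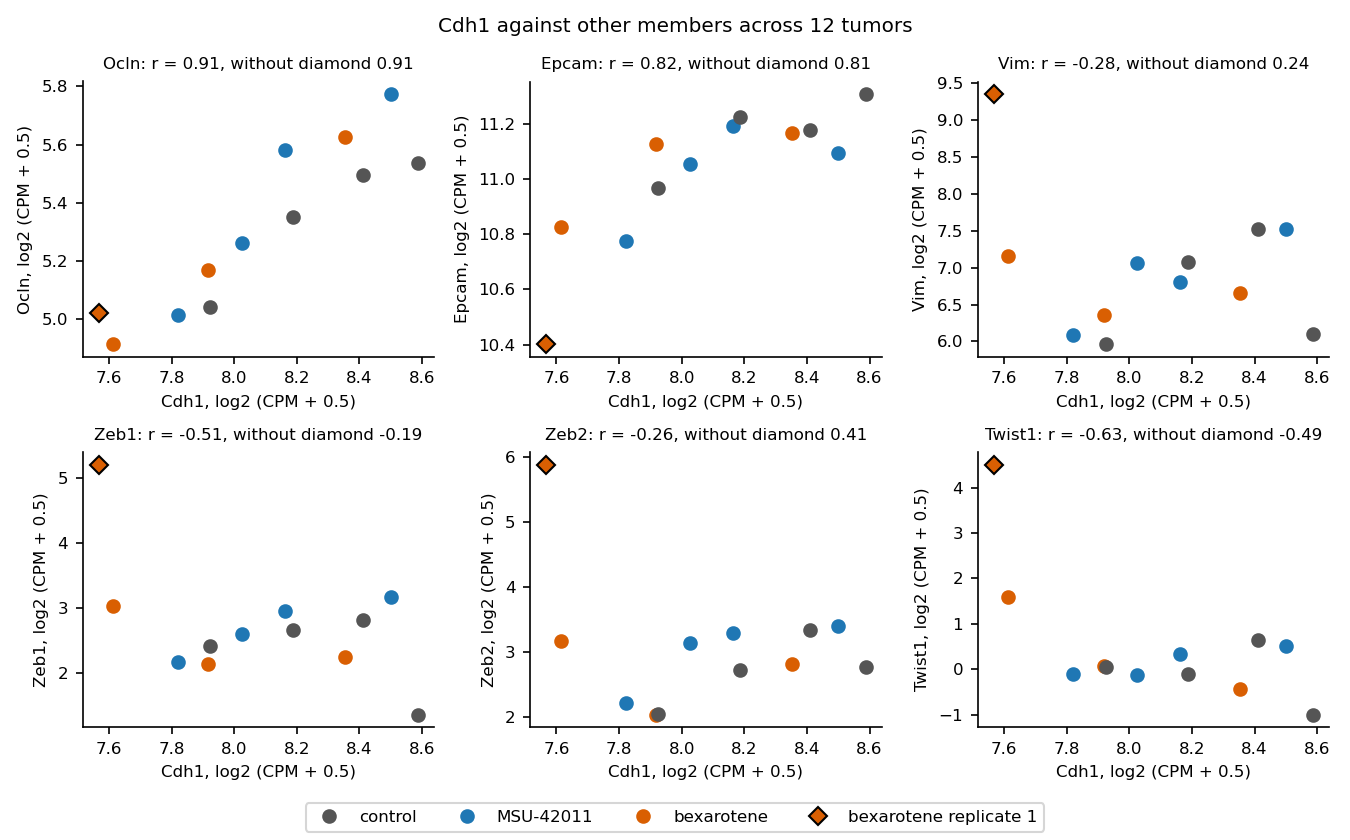
Log2 of CPM plus 0.5 of 6 genes against that of Cdh1 in the 12 tumors, colored by diet, with bexarotene replicate 1 as a diamond and r given with and without it. Ocln and Epcam follow Cdh1 along a line at r = 0.91 and 0.82, whereas for Vim, Zeb1, Zeb2 and Twist1 the diamond lies alone at the upper left.

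The genes whose level was most like that of Cdh1 over the 11 tumors without bexarotene replicate 1 were Mpzl1 (r = 0.974, and 0.979 over 12), Tnfaip1 (0.973, and 0.783), Cttnbp2nl (0.970, and 0.715), Bcl2l1 (0.960, and 0.911) and Aktip (0.959, and 0.933). Ocln was the 84th gene in this order and Epcam the 544th. For Vim they were Pcsk6 (0.935, and 0.977), Ccdc112 (0.934, and 0.198), the collagen gene Col6a1 (0.931, and 0.976), Cavin3 (0.922, and 0.972) and the lysyl oxidase gene Loxl2 (0.922, and 0.969). Of the 9 other members, Zeb2 was nearest to Vim, as the 70th gene with r = 0.834, followed by Zeb1 as the 219th with 0.776. Snai1 (0.640), Cdh2 (0.586) and Twist1 (0.581) were farther down. Snai2 (0.361) lay below the epithelial gene Ocln (0.397), and Cdh1 (0.237) and Epcam (0.154) were last. These values are a description over 11 tumors, whose depth and fibroblast content also differed.

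Other genes of the same pathways were read from lists, of which 0 genes passed an adjusted p under 0.05 with edgeR in any comparison. Of the 36 genes of epithelial junctions and identity, all tested, 34 were lower with bexarotene than with control diet (median −0.17 on the log2 scale, against 0.03 for all genes), of which 2 at an unadjusted p under 0.05 (1.96% of all genes were lower at that p). Without bexarotene replicate 1 it was 24 of 36 (median −0.05, against 0.0062 for all genes), of which 0 at that p (1.75% of all genes). With MSU-42011 it was 25 of 36 (median −0.09, against 0.00155 for all genes). With bexarotene, Lsr, a tricellular junction receptor (−0.47, SE 0.215, and −0.39 without replicate 1), and the keratin Krt19 (3.10, SE 1.48) were among the genes of this list with the smallest p-values. Krt19 was at 28.2 CPM in bexarotene replicate 1 and at most 1.85 in control tumors, and its log2 fold change was −0.16 without that tumor. With MSU-42011 the smallest p-values belonged to Krt7 (−0.59, SE 0.284), the catenin Ctnnd1 (−0.27, SE 0.134) and the desmosome protein Dsp (0.57, SE 0.350).

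Between the agonists Dsp, which anchors keratin filaments at desmosomes, was at 89.4 to 156 CPM with MSU-42011 and 28.3 to 117 with bexarotene, a log2 difference of 0.98 (SE 0.353, edgeR adjusted p = 0.997) and of 0.74 (SE 0.296) without bexarotene replicate 1. Lsr differed by 0.49 (SE 0.215), and by 0.40 without that tumor. Krt19 differed the other way, by −5.51 (SE 1.75), with at most 0.485 CPM in any MSU-42011 tumor, and by −2.26 (SE 1.29) without bexarotene replicate 1. None of the 3 passed the adjusted test. Of the 36 genes 27 were higher with MSU-42011 (median 0.09, against −0.02 for all genes). With that tumor left out it was 20 of 36 (median 0.02, against −0.000107), and 1 gene was higher (1.59% of all genes) and 4 were lower (1.47% of all genes) with p under 0.05 before adjustment.

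Of the 13 tested factors that keep the epithelial state (14 listed), 11 were lower with bexarotene (median −0.11, against 0.03 for all genes). Without replicate 1 it was 9 of 13, with a median of −0.00905, close to the 0.0062 of all genes. With MSU-42011 6 were lower (median 0.02, against 0.00155). Grhl2, a grainyhead factor that activates Cdh1, was at 57.9 to 104 CPM in control tumors, 53.0 to 75.1 with MSU-42011 and 44.5 to 61.4 with bexarotene. Its log2 fold change was −0.20 (SE 0.193) with MSU-42011 and −0.35 (SE 0.193) with bexarotene, which was −0.26 (SE 0.199) without replicate 1. The Krüppel-like factor Klf4 had 43.1 CPM in bexarotene replicate 1, and its log2 fold change of 1.51 (SE 0.672) was 0.41 without it.

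Of the 19 tested other EMT regulators (21 listed), 12 were higher with MSU-42011 (median 0.06, against 0.00155 for all genes). With bexarotene 10 were higher (median 0.04, against 0.03). The latter was 9 of 19 without bexarotene replicate 1, with a median of −0.04, against 0.0062. Tgfb3, a ligand of the TGF-β family that can induce EMT, was at 309 to 1240 CPM in control tumors, 276 to 416 with MSU-42011 and 178 to 293 with bexarotene. On the log2 scale the change was −0.87 (SE 0.360, edgeR adjusted p = 0.9999) with MSU-42011 and −1.30 (SE 0.363, edgeR adjusted p = 0.762) with bexarotene, and −1.39 (SE 0.400) without bexarotene replicate 1. Tgfb3 was thus opposite in sign to the EMT factors in the bexarotene comparison, and its size did not rest on that tumor. Its control tumors varied widely (mean 611, SD 421), with 1240 CPM in the highest. The size of either change without that control tumor is not given here. Prrx1, a mesenchymal homeobox factor, had 82.3 CPM in bexarotene replicate 1 and at most 8.23 in any MSU-42011 tumor, and its log2 fold change went from 2.95 (SE 1.11) to 0.14 (SE 0.610) without that tumor.

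Of the 22 tested mesenchymal effector genes (24 listed), 19 were higher with bexarotene (median 1.5, against 0.03 for all genes), of which 11 at an unadjusted p under 0.05 (4.48% of all genes were higher at that p). Without replicate 1 it was 12 of 22 (median 0.15, against 0.0062), of which 0 at that p (1.6% of all genes). With MSU-42011 it was 8 of 22 (median −0.19, against 0.00155). Fibronectin (Fn1) was at 1520 CPM in bexarotene replicate 1 and at 7.10 to 47.9 in control tumors, with a log2 fold change of 4.14 (SE 1.26) and of 1.40 (SE 0.754) without it. The matrix metalloproteinase Mmp2 was at 350.0 CPM there and at 6.01 to 14.5 in control tumors (3.40, SE 0.993, and 0.96, SE 0.450, without it).

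Markers of the cell types that such a tumor piece can hold moved with bexarotene replicate 1. The summed CPM of 14 fibroblast markers was 12700 in this tumor and 119.1 to 1025 in the other 11, and all 14 were highest there. It was 552 for 10 endothelial markers (105.7 to 262.7 in the others, 10 of 10 highest), and 2605 for 13 macrophage markers (348.1 to 1049 in the others, 12 of 13 highest). For 7 adipocyte markers it was 161.2 (29.5 to 52.0 in the others) and for 9 myoepithelial markers 308.3 (44.4 to 144.5 in the others). Skeletal muscle markers were at 267.7, which control replicate 1 approached with 145.4, while the other 10 tumors were between 1.34 and 4.12. Pericyte markers came to 463.5, with 3 of 5 highest there. The 9 luminal epithelial markers summed to 1893, lower than in the other tumors (2791 to 3925), although 2 of the 9 were highest there, Krt19 among them. T cell markers, at 10.9, lay within the range of the other tumors (5.33 to 14.3). B cell markers came to 4.83, the highest of the 12 but next to 4.82 in another tumor, and 1.91 times the median of the other 11. No listed marker was at 0 in all tumors, and 1 B cell marker was at 0 in this tumor.

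**Figure D5:**
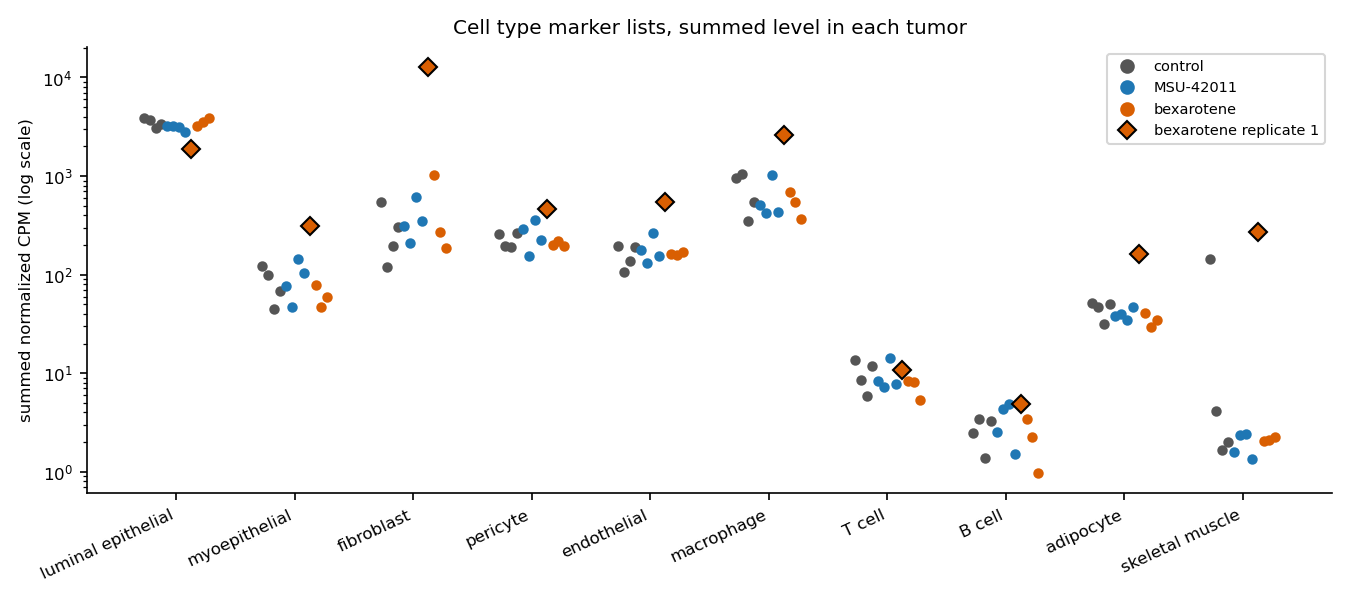
Summed normalized CPM of each cell type marker list in each of the 12 tumors, on a log axis, colored by diet with bexarotene replicate 1 as a diamond. The diamond lies highest for the fibroblast list, at 12700 against 119.1 to 1025 in the other tumors, and lowest for the luminal epithelial list, at 1893.

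In the other 11 tumors, Twist1 was highest in bexarotene replicate 2 at 2.53 CPM, the tumor with the highest fibroblast sum of the 11 at 1025. The high pair of Cdh2 values with MSU-42011, in replicates 3 and 4, came with fibroblast sums of 609.5 and 350.7, against 311.8 and 207.3 in replicates 1 and 2. The myoepithelial sums of these tumors split the same way, at 144.5 and 104.1 against 76.2 and 47.1. Their endothelial sums did not, with 154.1 in replicate 4 and 178.7 in replicate 1. Outside that group a higher fibroblast sum did not always come with more Cdh2. Bexarotene replicate 2, with the sum of 1025, had 1.05 CPM of Cdh2, control replicate 1 had a sum of 544.9 with 1.48 CPM, and control replicate 4 had a sum of 304.8 with the lowest Cdh2 of all at 0.388 CPM. Snai1, Snai2, Zeb1 and Zeb2 were also highest of the 11 in MSU-42011 replicate 3, and so was the epithelial gene Ocln (54.2 CPM). That tumor also had the highest endothelial (262.7), pericyte (359.8), myoepithelial (144.5), T cell (14.3) and B cell (4.82) sums of the 11. Its fibroblast sum (609.5) was below the 1025 of bexarotene replicate 2, and its macrophage sum (1022) below the 1049 of control replicate 2. Which cell type these genes went with was not tested.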

How the data were processed

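Frozen tumor pieces were extracted, poly(A)-enriched and sequenced for the authors by Novogene, with 1 library per tumor. The authors deposited raw read counts per gene, as whole numbers, and FPKM values, made by dividing each count by the library total and by a gene length the authors set. The submitters' processing notes name STAR 2.6.1d, featureCounts 1.5.0-p3 and DESeq2. Build and strandedness are not given in the sources used here, but 98.0% of the listed coordinates equal those of GENCODE M21 on GRCm38, and 9 of the 10 genes do (Epcam differs). The authors' own comparison tables, of fold changes and p-values, were not used.

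Counts were normalized by TMM and filtered by filterByExpr at its defaults in edgeR 4.0.16 (R 4.3.3), which left 15504 genes and all 10 genes followed. The quasi-likelihood F test was fitted with 3 group means and no covariate, and p-values were adjusted by Benjamini-Hochberg over all genes tested. The smallest p of an exact permutation test between groups of 4 is 0.0286. Correlations used 100000 permutations of log2 CPM with a pseudocount of 0.5. A floor of 3 counts was used, which covers counting error only. Alternatives were DESeq2 1.42.0, DESeq2 size factors, no filter, limma 3.58.1 on log2 FPKM, the replicate number as a block, and leaving out each tumor. The scripts were tested on simulated data. The genes and lists were chosen with earlier results of these data known. Named genes were the 10, the 5 most like Cdh1 and Vim, and up to 3 of each list with the smallest p. Some genes that this rule names are not reported here.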

Additional observations from a re-analysis of the deposited data

Results flagged for a closer look

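In the bexarotene group, 1 tumor lay far from the other 3 for 6 of the 10 genes, and in each it was replicate 1 as the highest. The gap to the nearest tumor, as a share of the range of the group's CPM, was 0.894 for Vim, 0.881 for Snai1, 0.908 for Snai2, 0.884 for Zeb1, 0.912 for Zeb2 and 0.896 for Twist1, above Dixon's 95% critical value for 4 samples. Chance flags about 1 in 20 groups, and 30 groups were examined. The 6 are not independent, since they come from the same tumor. No control or MSU-42011 tumor was set apart in this way, and no difference between the agonists passed the test.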

How the results depend on the processing

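No member was called in any comparison under any alternative, and no adjusted p was below 0.303, the value of Twist1 with bexarotene in DESeq2. Of 420 fold changes under the alternatives, 402 kept their direction and 18 turned, each when 1 tumor was left out. Sizes moved by over 1.5 times in 0 of 30 with DESeq2, its size factors or no filter. With limma on log2 FPKM plus 1, 19 of 30 were smaller by over 1.5 times and 2 larger, and with log2 FPKM plus 0.1 it was 15 and 3. With bexarotene Twist1 went from 3.67 to 1.11 and 1.95, Snai2 from 2.01 to 0.52 and 1.22, and Zeb2 from 1.60 to 0.73 and 0.81. With MSU-42011 Cdh2 went from 1.25 to 0.29 and 0.79. Over the fits that left out a single tumor, the log2 fold change with MSU-42011 against control ran from −0.065 to 0.19 for Ocln, from −0.11 to 0.49 for Vim and from −0.088 to 0.97 for Twist1. With bexarotene against control it ran from −0.052 to 1.46 for Vim and from −0.040 to 1.93 for Zeb2, with the lowest value without bexarotene replicate 1 in both. Between MSU-42011 and bexarotene it ran from −0.00998 to 0.22 for Epcam, from −0.25 to 0.96 for Cdh2, from −1.27 to 0.19 for Vim, from −1.32 to 0.27 for Snai1, from −1.47 to 0.34 for Snai2, from −1.34 to 0.26 for Zeb1 and from −1.62 to 0.36 for Zeb2, with the highest value without bexarotene replicate 1 in all 7 but Epcam, where it was the lowest. Without that tumor the r with Cdh1 turned to 0.244 for Cdh2, 0.237 for Vim, 0.335 for Snai1 and 0.411 for Zeb2, and centring on the group mean gave 0.0758 for Cdh2. The r of Twist1 with Cdh1 no longer passed at −0.488 without that tumor, −0.503 centred on the group mean and −0.536 on log2 FPKM plus 1, so that 2 of 9 genes varied with Cdh1 there in place of 3. The log2 ratio of Cdh1 to Ocln between the agonists went from 0.04 to −0.00462 without that tumor, an alternative chosen after seeing the data. The cause was not tested.

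The replicate numbers did not pair the tumors (correlations of same-numbered tumors −0.352 to 0.349). With the replicate number as a block 0 members were called, and the log2 fold change with bexarotene was 2.80 for Twist1, 0.96 for Zeb2 and −0.44 for Cdh1. Cdh2, Snai2 and Twist1 rest on few reads, so that small differences in them could not be seen at this depth.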

Other observations

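The ratio of Cdh1 to Ocln varied little among the tumors of a diet. The log2 ratio of their CPM, with 0.5 added to each, was 2.84 to 3.05 in control tumors (mean 2.92, SD 0.0925, n = 4), 2.58 to 2.81 with MSU-42011 (mean 2.72, SD 0.0992) and 2.55 to 2.75 with bexarotene (mean 2.68, SD 0.0911). The control range overlapped with neither agonist. The control mean was higher by 0.20 than with MSU-42011 and by 0.24 than with bexarotene on the log2 scale, each with an exact two-sided permutation p of 0.0286, the smallest the design allows. The difference with bexarotene was −0.20 without replicate 1, left out after its values were seen (2.70 to 2.75 in the other 3 tumors), with an exact two-sided permutation p of 0.0571, the smallest that 3 against 4 tumors allow. Both comparisons use the same control tumors. Adjusted over the 18 comparisons of 6 ratios the permutation p was 0.257, which does not pass, and the ratio was singled out after its values were seen. Between the agonists the difference was 0.04 (exact p = 0.486), and −0.00462 (exact p = 1.0) without that tumor. The ratios of Cdh1 to Epcam, Zeb1 to Zeb2 and Snai1 to Snai2 overlapped between all diets.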
